A study of Mus musculus with 3 samples.

Results

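Transcripts of kidney mesenchyme, stroma and fibrillar matrix were examined in sorted mouse nephric duct cells, as 34 named genes that the surrounding, non-epithelial cells are known to make. The genes were taken from a list of names, chosen with earlier results of these data known. Of the 34, 33 had a probe set of their own among the 19938 genes measured, each with 1 probe set. The signal of Fbn1 was not analysed here, although its promoter window is among those described below. The study holds 3 arrays of a single group, numbered 1 to 3: duct cells of CD-1 mouse embryos at 10.5 dpc (days post coitum), Theiler stage 18, of unknown sex, that carry the transgene Tg(Hoxb7-EGFP)33Cos, in which the Hoxb7 promoter drives green fluorescent protein in the nephric duct and its branches. Each sample was 1 duct, dissected, trypsinised, sorted by fluorescence, amplified in 1 round with the WT-Ovation Pico kit and hybridised to 1 Affymetrix array. With a single group, a gene could be set only against the background of its array. The labels do not state that the ducts were from different embryos, and the p-values cover the variation among the 3 ducts alone, which may be technical.

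The nephric duct is an epithelial tube that sends the ureteric bud into a neighbouring mass of metanephric mesenchyme. That mesenchyme holds the progenitors of the nephron, marked by factors such as Osr1, Wt1 and Cited1, and it is flanked by stromal and mural progenitors marked by Tcf21, Tbx18 and the Prrx factors. Fibroblast-like cells secrete the fibrillar collagens, collagen VI, elastic fibre proteins and small proteoglycans of the interstitium. Transcripts of these genes in a sorted duct preparation can come from duct cells that make them or from other cells carried along, and in bulk RNA fewer cells of a type and less RNA per cell cannot be told apart.

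Promoter windows were available for 17 of the 34 genes, from RefSeq (GRCm38.p6). Those of Cited2, whose call held at each cutoff, of the fibrillar collagen gene Col1a2 and of Acta2, whose values differed most between arrays, are given as the 250 bases upstream of the annotated start, 5′ to 3′ along the gene. Capitals mark matches to GGGCGG or CCAAT on either strand. The windows lie at chr10:17722978-17723227 (+) for Cited2, chr6:4505368-4505617 (+) for Col1a2 and chr19:34255374-34255623 (-) for Acta2.
Cited2: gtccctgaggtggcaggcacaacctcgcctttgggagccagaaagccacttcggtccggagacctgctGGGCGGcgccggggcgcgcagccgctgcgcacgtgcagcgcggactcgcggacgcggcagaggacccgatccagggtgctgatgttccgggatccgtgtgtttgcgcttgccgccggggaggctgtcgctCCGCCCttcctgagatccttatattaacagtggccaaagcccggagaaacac
Col1a2: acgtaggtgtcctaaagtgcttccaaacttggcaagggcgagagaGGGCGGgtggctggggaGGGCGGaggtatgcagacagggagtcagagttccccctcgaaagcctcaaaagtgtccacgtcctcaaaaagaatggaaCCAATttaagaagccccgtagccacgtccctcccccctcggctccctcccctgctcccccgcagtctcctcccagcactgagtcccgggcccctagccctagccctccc
Acta2: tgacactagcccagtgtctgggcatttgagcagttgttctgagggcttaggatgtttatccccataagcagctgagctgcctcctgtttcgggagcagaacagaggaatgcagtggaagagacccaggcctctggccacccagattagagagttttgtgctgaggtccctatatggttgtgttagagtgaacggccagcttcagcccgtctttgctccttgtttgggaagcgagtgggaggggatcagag
The Cited2 window held 26 CpG dinucleotides and 2 GGGCGG matches, 1 on each strand. The Col1a2 window held 11 CpG, 2 GGGCGG and 1 CCAAT match, and the Acta2 window 4 CpG and no exact match to the motifs searched. These were the GC box GGGCGG, the CCAAT box, the TATA box TATAAA and the CArG box, each on both strands, and matches of different motifs may overlap. The CArG box was searched only in its strict form, with A or T alone at its inner positions, so that elements with a G or C there, which many smooth muscle promoters use, were not counted. GGGCGG occurred in 10 of the 21 windows of the set (47.6%) and in 32.7% of all 32851 windows. CCAAT occurred in 3 windows, of Cited1, Col1a2 and Tbx18, against 33.8% of all. TATAAA was found in 5 windows, of Cited1, Col3a1, Meox2 and Postn (23.8%, against 12.4% of all), and the CArG box in 1, of Cited1 (1.47% of all). The median window held 9 CpG in the set and 6 overall. These matches describe the letters of the windows and not sites in use.

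Receptor genes of olfactory and vomeronasal sensory neurons served as the background. The 95th percentile of their 1212 probe sets set the cutoff, at 5.69, 5.73 and 5.70 log2 units on arrays 1, 2 and 3. A gene passes, or is called above background, where limma's one-sided test of its values minus these cutoffs gave a Benjamini-Hochberg adjusted p under 0.05 over all probe sets with 1 gene. Values below are the deposited log2 signals. Probe sets differ in affinity, so levels are compared with the cutoff and between arrays, not between genes.

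Of the 33 measured mesenchyme and stroma genes, 15 passed (45.5%), against 56.2% of all genes. Their median signal was 5.84, which is 0.13 log2 units above the mean cutoff, and that of all genes was 6.04. The genes above background were Cited1, Cited2, Wt1, Crym, Prrx2, Col1a1, Col1a2, Col3a1, Col5a1, Col14a1, Col6a1, Col6a2, Tagln, Eln and Pcolce. Few of them stood far above the cutoff. Of the 33, 14 lay below the mean cutoff, 11 lay up to 0.5 log2 units above it, 4 between 0.5 and 1, and 4 more than 1 above it (12.1%, against 33.1% of all genes). The last group was Cited2, Cited1, Col6a2 and Col1a1.

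**Figure D1:**
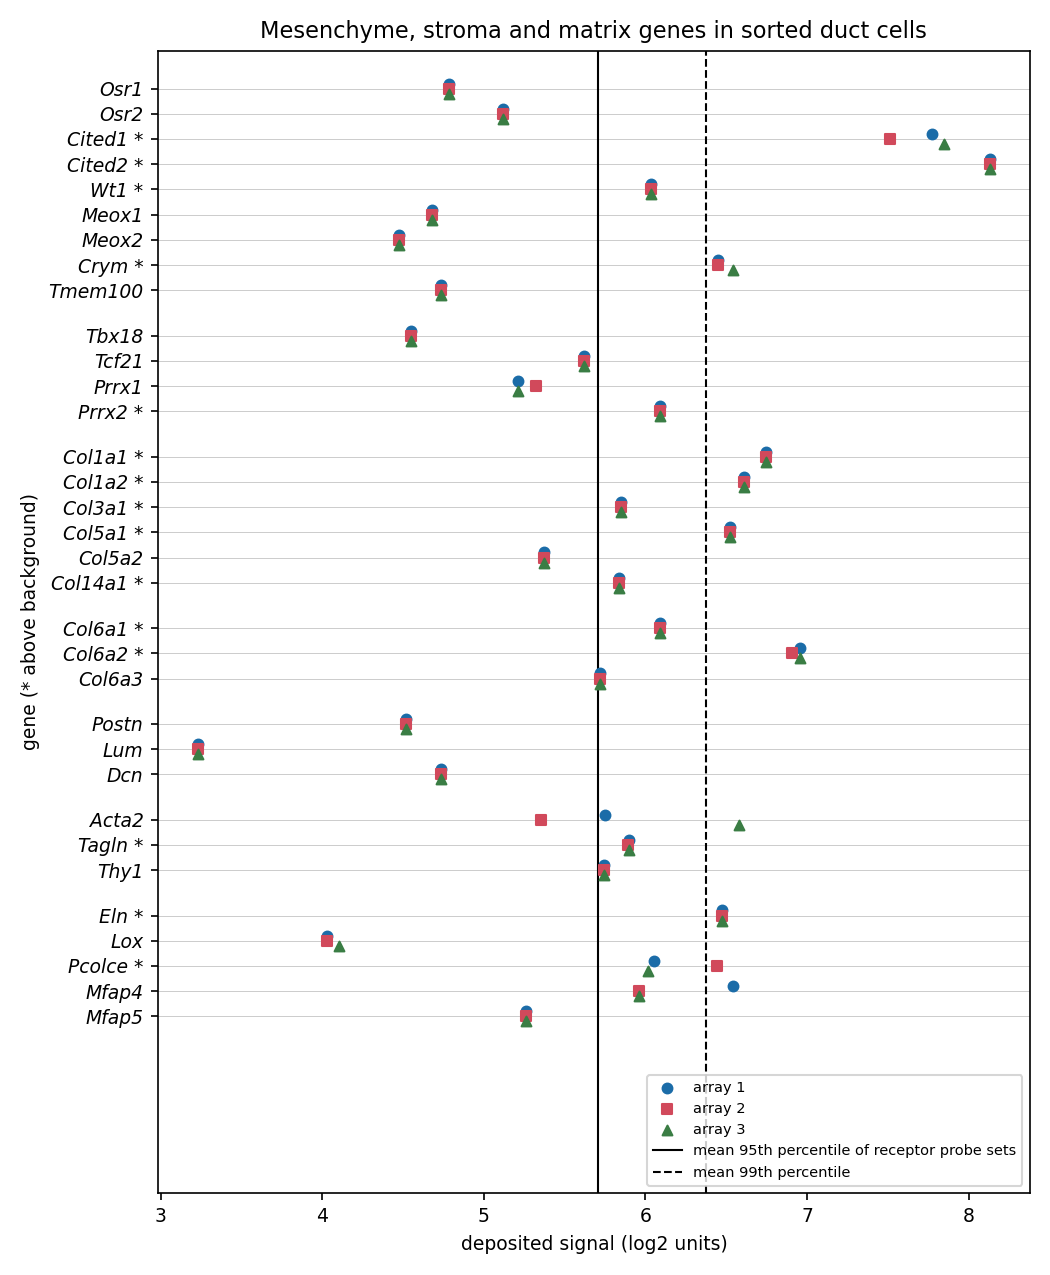
Deposited signal in log2 units (horizontal axis) of the 33 measured genes on arrays 1, 2 and 3 (circles, squares and triangles), in blocks by role, with the mean 95th (solid line) and 99th (dashed line) percentiles of the receptor probe sets and an asterisk on the 15 genes above background. Most genes show their 3 symbols at one value, and Acta2 is spread widest, from 5.35 to 6.58.

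The share called depended on where the cutoff was placed, for these genes as for all genes. With the receptors' 99th percentile as cutoff, 6 of the 33 passed (18.2%, against 36.1% of all genes): Cited1, Cited2, Col1a1, Col1a2, Col5a1 and Col6a2. With the cutoff raised by 1 log2 unit, 3 passed (9.09%, against 28.4%), Cited1, Cited2 and Col6a2. At the 90th percentile 19 passed (57.6%, against 65.4%), and at the 30th percentile of all named probe sets 20 (60.6%, against 67.7%). Other choices moved the count less, and olfactory receptors alone gave 15, against 53.9% of all genes. The lowest probe set of a gene and the mean of its probe sets also gave 15, against 55.1% and 55.8% of all genes. As each gene of the set has 1 probe set, these choices leave its level unchanged. Taking the spread of probe sets with one value from the others gave 14 (against 54%), and a filter on low values gave 15 of 31 (48.4%, against 62.1%). Without array 1, 2 or 3 the counts were 16, 15 and 13, against 55.2%, 54.9% and 52% of all genes. The fit without array 3 gave all genes one common spread. The calls of Cited1, Cited2 and Col6a2 held under each of the 13 alternatives planned. Of these, the probe set choices and the centring of arrays on their median could not change the distances of the set from the cutoff.

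**Figure D2:**
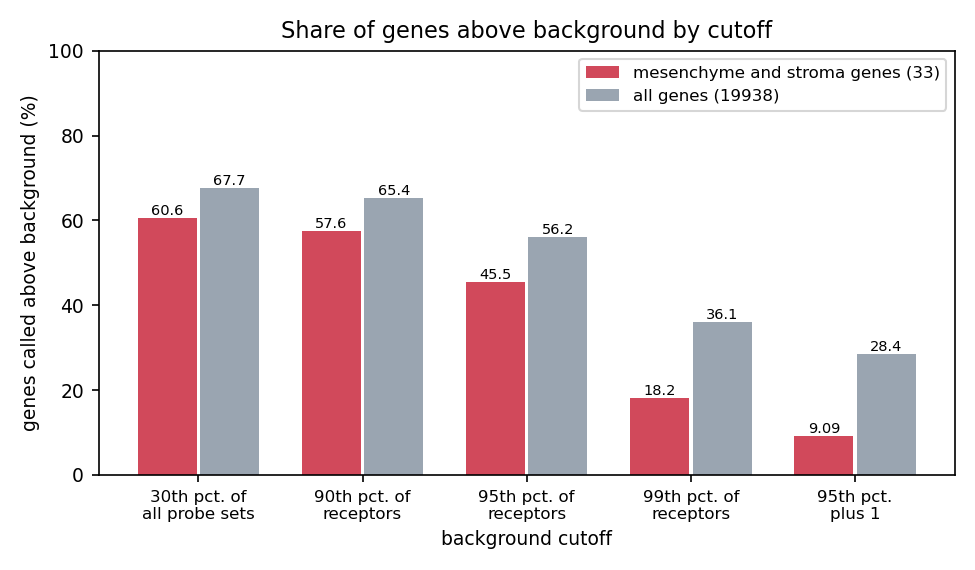
Percent of genes called above background (vertical axis, from 0) at 5 background cutoffs from lenient to strict, for the 33 mesenchyme and stroma genes and for all 19938 genes. Both shares fall to the right, from 60.6% to 9.09% for the set and from 67.7% to 28.4% for all genes; the bars carry no error since each is a single count.

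Among the 9 metanephric mesenchyme genes, 4 passed and 5 did not (44.4% called, against 56.2% of all genes). Cited2, a transcriptional co-regulator that binds CBP and p300 and is used in many embryonic tissues, read 8.13 on each of the 3 arrays. Its signal lay 2.43 log2 units above the mean cutoff (limma, Benjamini-Hochberg adjusted p = 3.03e-06). Its paralogue Cited1, known from the cap mesenchyme of nephron progenitors, read 7.77, 7.52 and 7.85 on arrays 1, 2 and 3. Every array of Cited1 was above the cutoff, array 2 was lowest, and the mean of 7.71 ± 0.17 (SD, n = 3) lay 2.00 log2 units above it (limma, adjusted p = 0.000205). Both signals exceeded 99.9% of the receptor probe sets. Crym, a thyroid hormone-binding protein, read 6.45 on arrays 1 and 2 and 6.54 on array 3 and passed. At the 99th percentile Crym did not pass (limma, Benjamini-Hochberg adjusted p = 0.0703), although it stayed 0.10 log2 units above that cutoff.

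Wt1, the zinc finger factor that the mesenchyme needs to survive and to answer the duct, read 6.04 on every array, 0.33 log2 units above the mean cutoff. It passed, but its 3 values were held exactly by 50 other genes. The odd-skipped factors Osr1 and Osr2, of which Osr1 is among the earliest markers of the intermediate mesoderm, read 4.78 and 5.12 on every array. Meox1 and Meox2, homeobox factors of the somites and limb mesenchyme, read 4.68 and 4.47, and Tmem100, a small membrane protein, 4.74, again with one value on all arrays. These 5 genes lay below the cutoff on each array, and 64.2% to 84.8% of the receptor probe sets read lower than they did.

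Of the 4 stromal and mesenchymal transcription factors, 1 passed (25%, against 56.2% of all genes). Prrx2, a paired-related homeobox factor of limb and craniofacial mesenchyme, read 6.09 on every array, 0.38 log2 units above the mean cutoff. Its relative Prrx1 read 5.21 on arrays 1 and 3 and 5.32 on array 2, below the cutoff throughout. Tbx18, a marker of ureteric mesenchyme, read 4.55 on every array. Tcf21, a basic helix-loop-helix factor of kidney stroma and podocytes, read 5.62 on every array, -0.09 log2 units from the mean cutoff, and it passed at the 90th percentile (limma, Benjamini-Hochberg adjusted p = 0.000198).

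Collagen genes made up most of the matrix genes above background, but also most of the matrix genes measured. All 6 genes of fibrillar and fibril-associated collagens held one value on the 3 arrays, and 5 passed (83.3%, against 56.2% of all genes). With the spread of probe sets with one value taken from the others, 3 passed (50%, against 54% of all genes). Without array 3 the count was also 3 (50%, against 52%), as at the 99th percentile (50%, against 36.1%). With the cutoff raised by 1 log2 unit 0 passed, against 28.4% of all genes. Col1a1 and Col1a2, the chains of type I collagen, read 6.75 and 6.61, and lay 1.04 and 0.90 log2 units above the mean cutoff. Col5a1, the chain of type V collagen that helps to start fibrils, read 6.52, whereas Col5a2, another chain of the same type, read 5.37 and did not pass. Col3a1 at 5.85 and Col14a1 at 5.84, the latter a collagen that associates with fibrils, stood 0.14 and 0.13 log2 units above it. They did not pass when the spread of probe sets with one value was taken from the others (limma, adjusted p = 0.0929 and 0.107), or without array 3 (limma, adjusted p = 0.281 and 0.306). The fit without array 3 gave all genes one common spread, and the distances of Col3a1 and Col14a1 there stayed at 0.14 and 0.13 log2 units.

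The beaded filaments of collagen VI are built from chains encoded by Col6a1, Col6a2 and Col6a3. Col6a2 read 6.96 on arrays 1 and 3 and 6.91 on array 2, 1.23 log2 units above the mean cutoff (limma, Benjamini-Hochberg adjusted p = 2.7e-05). Col6a1 read 6.09 on every array and passed. Col6a3 read 5.72 on every array, 0.01 log2 units above the mean cutoff but below that of array 2, and did not pass (limma, adjusted p = 0.506).

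The 3 genes grouped as matrix glycoproteins and small proteoglycans were below background, each with one value: Postn, an adhesion protein of fibroblast matrix, read 4.52, the collagen-binding proteoglycan gene Dcn 4.74 and its relative Lum 3.23. Lum lay at -2.48 log2 units from the mean cutoff, and 15.5% of the receptor probe sets read lower. None of the 3 passed under any of the alternatives tried.

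Of the 3 contractile and surface genes, 1 passed (33.3%, against 56.2% of all genes). Acta2, the actin of smooth muscle and myofibroblasts, read 5.75, 5.35 and 6.58 on arrays 1 to 3. Its values straddled the cutoff, with array 2 below it, array 1 just above and array 3 well above, and it did not pass (0.19 ± 0.29 log2 units above the cutoff, estimate and SE, limma, Benjamini-Hochberg adjusted p = 0.479). Without array 3 its distance from the cutoff was -0.16 log2 units. Tagln, an actin-binding protein of the same cells, read 5.90 on arrays 1 and 3 and 5.89 on array 2 and passed. It did not pass without array 3 (limma, adjusted p = 0.158), in a fit that gave all genes one common spread. Its distance from the cutoff was 0.19 log2 units with and without that array. Thy1, a surface glycoprotein of fibroblasts and neurons, read 5.74 on every array, 0.04 log2 units above the mean cutoff, and did not pass (limma, adjusted p = 0.0808).

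Of the 5 measured genes of elastic fibres and of collagen processing and crosslinking, 2 passed (40%, against 56.2% of all genes). Eln, the elastin gene, read 6.47 on every array. Pcolce, which speeds the removal of the procollagen tail, read 6.05, 6.44 and 6.02 on arrays 1 to 3, so that array 2 was highest (6.17 ± 0.24, SD, n = 3; limma, adjusted p = 0.0165). Mfap4, a microfibril-associated glycoprotein, read 6.54 on array 1 and 5.96 on arrays 2 and 3. Each value was above the cutoff, but the gene did not pass with this spread (limma, adjusted p = 0.0592). It passed without array 1, where its remaining values are the same (limma, adjusted p = 0.00403). It also passed without array 3 (limma, adjusted p = 8.86e-05). That fit gave all genes one common spread and did not use the gap of Mfap4 between arrays 1 and 2. Mfap5 at 5.26 on every array, and Lox, the crosslinking enzyme, at 4.03 on arrays 1 and 2 and 4.10 on array 3, did not pass.

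Of the 33 genes, 24 read exactly the same on the 3 arrays (72.7%), against 50.8% of all genes and 60.9% of genes with a mean below 7. Only the array cutoffs vary for such genes, and the p-values of the 10 among them that passed are too small. Many of these values were also shared between genes. Exactly the same 3 values as another gene were held by 19 of the 33 (57.6%), against 40.5% of all genes and 52.6% of those with a mean below 7. For 14 of the 33 there were 10 or more such genes (42.4%, against 25.3% of all genes and 35.05% of those with a mean below 7). Meox2 shared its values with 89 other genes, 17 of them receptor genes, Osr2 with 78, Thy1 with 70 and Wt1 and Col3a1 with 50 each. Tmem100 and Dcn held the same values as each other, and so did Prrx2 and Col6a1. Of the 15 genes above background, 7 shared their values (46.7%, against 26.9% of all genes above background). The other 8 were Cited1, Cited2, Crym, Col1a1, Col6a2, Tagln, Eln and Pcolce. Among genes that shared their values with no other, 8 of 14 passed (57.1%, against 69% of all such genes).

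**Figure D3:**
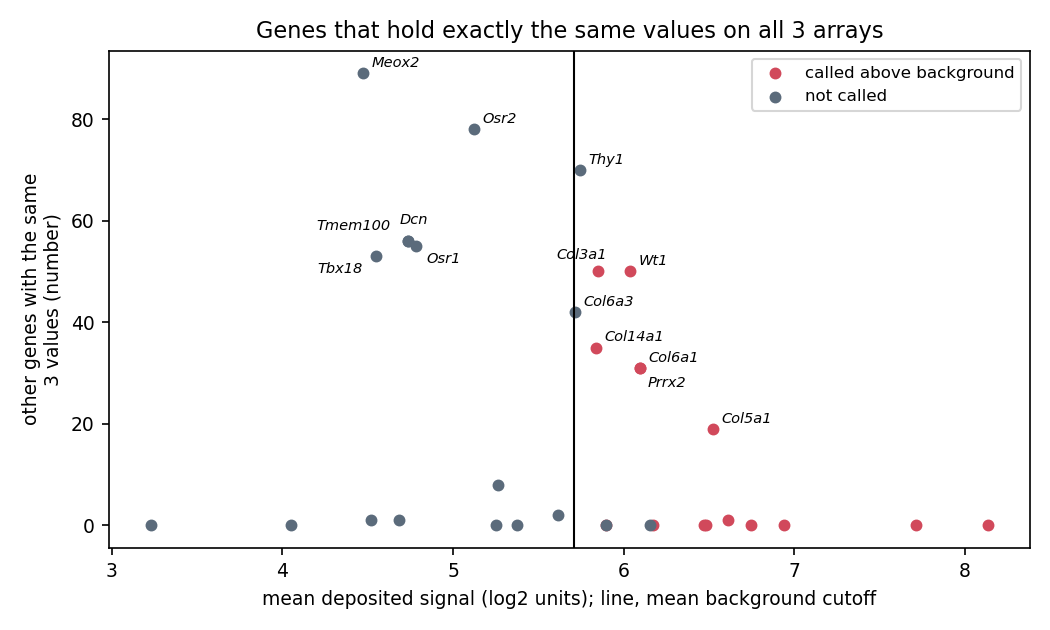
Number of other genes with exactly the same 3 values (vertical axis) against mean deposited signal in log2 units (horizontal axis) for the 33 genes, coloured by whether they passed, with a line at the mean cutoff of 5.71. Genes that share with 10 or more others are labelled; those farthest right, above a mean of 6.6, share with at most 1 other gene.

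Differences between arrays were small for most of the set. Only 9 of the 33 genes differed at all between arrays, 4 had a range over 0.25 log2 units (Cited1, Acta2, Pcolce and Mfap4; 12.1%, against 21.1% of all genes), and 1, Acta2, a range over 1 log2 unit (3.03%, against 3.15% of all genes). Cited1, Col6a2, Acta2 and Tagln were lowest on array 2, which was 12.1% of the set and 10.4% of all genes. A gene with one value on all arrays cannot be lowest, and 72.7% of the set held one value, against 50.8% of all genes. Col6a2 and Tagln differed there by only -0.05 and -0.01 log2 units. Highest on array 3 were Cited1, Crym, Acta2 and Lox. Averaged over the set, array 2 differed from the other arrays by -0.03 log2 units, array 1 by 0.0051 and array 3 by 0.03. These averages include the 24 genes with one value, whose differences are 0 by construction. Over the genes above background alone, array 2 differed by 0.00084.

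**Figure D4:**
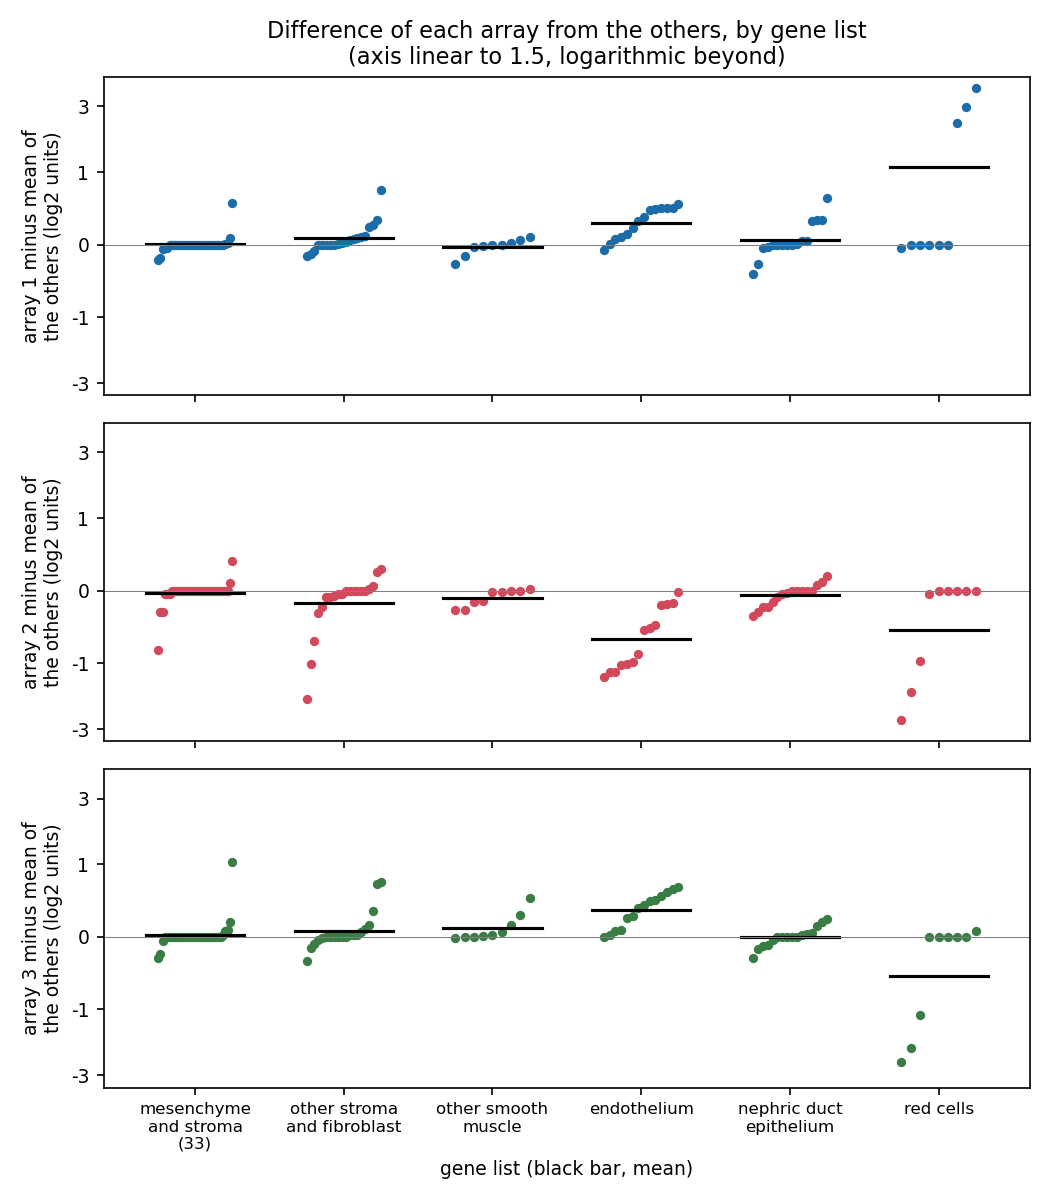
Difference of each array from the mean of the other arrays in log2 units (vertical axes, linear to 1.5 and logarithmic beyond), with 1 point per gene and a black bar at the mean, for the 33 mesenchyme and stroma genes and 5 other lists. The set lies at or near 0 on each array apart from Acta2, Mfap4, Pcolce and Cited1, while the endothelial list lies lower on array 2 (mean -0.67) and the 3 globin genes of the red cell list lie higher on array 1. Of the set, 24 genes hold one value on all arrays and lie at 0 for that reason, while no endothelial gene does.

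Genes of other cell types also read differently on the 3 arrays. All 14 endothelial genes were lowest on array 2, where their median was 7.06, against 7.75 on array 1 and 7.72 on array 3, as was Acta2. Kdr, Cldn5, Egfl7 and Erg had ranges of 1.02, 1.16, 1.01 and 1.12 log2 units, beside those of Emcn at 1.25 and Cdh5 at 1.10. Of the 20 further stromal genes 8 were lowest on array 2 (40%), and so were 6 of the 16 duct genes (37.5%), against 10.4% of all genes. Genes with one value, which cannot be lowest, were 25% of the stromal list and 31.25% of the duct list, against 50.8% of all genes. The stromal list's mean there differed by -0.17 log2 units and the duct list's by -0.06. The largest stromal ranges were those of Sparc, a collagen-binding matrix protein, at 11.20, 9.70 and 11.18, and the proteoglycan gene Bgn at 6.67, 5.84 and 7.02. Vim, the intermediate filament of mesenchymal cells, read 9.94, 9.24 and 9.94. Sparc and Vim are also made by endothelium. The part of endothelial cells in the values of Acta2, Sparc, Bgn and Vim was not tested. The 24 genes of the set with one deposited value on all arrays, the 6 fibrillar collagen genes among them, bear on no difference between arrays. Globin genes set array 1 apart, with Hbb-y at 10.02 against 5.31 and 5.45, Hba-x at 8.89 against 5.97 and 5.84, and Hbb-bh1 at 6.41 against 4.40 and 4.33. Mfap4 was highest on that array, and the part of red cells in its value was not tested.

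Smooth muscle genes were read beside Acta2, and the share of them called was 44.4%, against 56.2% of all genes. Of 9 further genes, 4 passed, with Cald1 at 8.89 ± 0.08, Tpm2 at 6.93 ± 0.17, Smtn at 6.92 ± 0.02 and Lmod1 at 6.06 ± 0.02 (SD, n = 3). The first of these is also made by non-muscle cells. Cnn1, Myh11, Des and Tpm2 were highest on array 3, as Acta2 was, or 44.4% of the list against 13.1% of all genes. Genes with one value, which cannot be highest, were 22.2% of the list and 50.8% of all genes. Of these genes only Tpm2 passed. Cnn1 read 5.53 on array 3, below the cutoff of 5.70, and the range of Myh11 was 0.03 log2 units. Smtn was highest on array 1, while Cald1 read the same on arrays 1 and 3 and Lmod1 on arrays 2 and 3. Des, the muscle intermediate filament, read 5.44 on arrays 1 and 2 and 5.97 on array 3. Myh11 at 5.70 ± 0.02, Myocd at 5.45 on every array and Actg2 at 5.29 on every array, defining genes of differentiated smooth muscle, did not pass.

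Further genes of the same cell types and pathways gave a mixed picture. The share called was 40% in the mesenchyme list and 55% in the stromal list, against 56.2% of all genes. In the metanephric mesenchyme 4 of 10 passed: Capn6 at 7.09 ± 0.25, Sall1 at 6.99, Uncx at 6.39 and Gdnf, the ligand of the duct's receptor Ret, at 5.80 ± 0.05. Six2, the factor that keeps nephron progenitors undifferentiated, read 5.07 on every array and did not pass, nor did Eya1, Eya4, Itga8, Hoxa11 or Hoxd11. In the stromal and fibroblast list 11 of 20 passed: Sparc, Vim, Fstl1 at 9.56 ± 0.03, the fibronectin gene Fn1 at 8.24 ± 0.19, the chemokine gene Cxcl12 at 6.78 ± 0.20, Snai2 at 6.53 ± 0.06, Dlk1, Fbln1, Fbln2, Twist1 and Cspg4. Foxd1, the defining factor of kidney stromal progenitors, read 4.44 on every array, Pdgfrb 5.20 ± 0.10 and the fibroblast protease gene Fap 4.09 ± 0.08, and none of them passed. Pdgfra read 5.78, 6.08 and 5.78 and did not pass.

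The enzymes that fold and crosslink collagen, which cells also use for other proteins, passed in 11 of 16 cases. That was 68.8% of them, against 56.2% of all genes. Ppib read 11.07 ± 0.22, P4hb 9.20 ± 0.30 and the collagen chaperone gene Serpinh1 8.33 ± 0.22 (SD, n = 3). Pcolce2, a relative of Pcolce, read 4.42 on every array and did not pass. All 6 other fibrillar collagen genes passed, each with one value on all arrays, including Col2a1 at 6.78 and Col11a2 at 6.79, chains known mainly from cartilage, and Col24a1 at 5.93. At the 99th percentile 3 of the 6 passed (50%, against 36.1% of all genes). Of 8 other elastic fibre genes 7 passed (87.5%, against 56.2% of all genes), and 3 at the 99th percentile (37.5%, against 36.1%). Mfap2 read 8.77 ± 0.35 and Fbn2, the fibrillin of early embryos, 8.48 ± 0.15, while Fbln5 at 5.65 ± 0.02 did not pass.

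The identity of the sorted cells was checked on duct markers. Of all genes 56.2% passed, and 36.1% at the 99th percentile. All 16 measured genes of the nephric duct list passed, at the 99th percentile too, with a median signal 2.36 log2 units above the mean cutoff. Calb1 read 11.71 ± 0.03, Krt8 10.56 ± 0.37 and Wnt9b, the lowest, 6.96 on every array. The endothelial list passed in 14 of 14 cases, with Emcn at 10.07 ± 0.69, Cdh5 at 9.10 ± 0.58 and Etv2, the lowest, at 5.77 ± 0.01. In the gonad and coelomic epithelium list, whose cells also make Wt1, 4 of 8 passed and 0 at the 99th percentile, with Gata4 at 6.34 ± 0.08, Podxl at 6.22 ± 0.10 and Lrrn4 not passing at 4.97 ± 0.04. Red cell genes passed in 2 of 9 cases, Gata1 and Slc4a1, and in 0 at the 99th percentile, and Rhag was lowest at 3.97. The highest of them, Hbb-y at 6.93 ± 2.68 and Hba-x at 6.90 ± 1.72, did not pass with this spread. Both read far higher on array 1 than on arrays 2 and 3. Leukocyte genes passed in 1 of 9, Cx3cr1 at 6.54, while Cd68 at 6.31 ± 0.51 and Adgre1 at 4.09 did not.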

How the data were processed

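Gene expression was measured on 3 Affymetrix arrays of sorted duct cells, a single group taken from the sample titles. The authors deposited log2 signals for 35557 probe sets, made with Affymetrix Expression Console per the submitters' processing notes. The scale was read from the values, and the summary algorithm is not given in the sources used here. A value identical on the 3 arrays occurred in 39.7% of probe sets.

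The platform annotation named the probe sets: 21789 had 1 symbol, 1621 had several and were left out, and 12147 were unnamed here. By Entrez number 21698 matched the GRCm38.p6 gene table. For each gene the probe set of highest mean was kept. Distances from the array cutoff were tested in limma 3.58.1 under R 4.3.3 (an intercept model, moderated with 1.13 prior degrees of freedom). The procedure was also tried on simulated data, whose values differed between arrays for every probe set. That trial did not cover genes with one value on all arrays. The false rate of the calls is not known. The cutoff is a percentile of the receptor probe sets, so that some exceed it by construction. On each array 57 of the 1212 did, a number that does not measure the false rate.

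The genes and lists were chosen with earlier results of these data known. All measured genes of the set are named, and of each other list the 2 highest, the lowest and any with a range over 1 log2 unit. Further list genes were named after their values were seen. The number of arrays limits the precision.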

Additional observations from a re-analysis of the deposited data

How the results depend on the processing

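The signal over background limits these results, since few of the genes lie far from the cutoff. Of the set, 15 genes were above background as reported, 6 with the receptors' 99th percentile as cutoff, 3 after raising it by 1 log2 unit, and 8 over genes that share their values with no other (chosen after seeing the data). Fits without 1 array gave 13 to 16. For all genes the counts were 11203, 7190 and 5653 at the same cutoffs (10363 to 11007 without 1 array), and for the 125 genes of the other lists 80, 53 and 38 (77 to 81). The fit without array 3 gave all genes one common spread. At the 90th percentile, the 30th percentile of all probe sets, with olfactory receptors alone, other probe set choices, centred arrays, the spread of tied probe sets from untied ones or a filter on low values, the count of the set was 14 to 20. Probe set choices and centring leave each distance of the set unchanged.

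Distances turned negative, by construction of the higher cutoff, at the 99th percentile for Wt1 (-0.34), Prrx2 and Col6a1 (-0.29 each), Col3a1 (-0.53), Col14a1 (-0.54), Tagln (-0.48) and Pcolce (-0.21). With the cutoff raised by 1 log2 unit they were -0.67 for Wt1, -0.23 for Crym, -0.62 for Prrx2 and Col6a1, -0.10 for Col1a2, -0.86 for Col3a1, -0.19 for Col5a1, -0.87 for Col14a1, -0.81 for Tagln, -0.24 for Eln and -0.54 for Pcolce. Over the genes above background alone, which leaves out Acta2, the mean difference of array 2 from the others moved from -0.03 to 0.00084 log2 units and the count with a range over 1 log2 unit from 1 to 0. No paired analysis was possible because there is a single group.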
